A study of Mus musculus with 6 samples.

Results

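The Igf2bp family of RNA-binding proteins has 3 genes in the mouse, Igf2bp1, Igf2bp2 and Igf2bp3. They were taken by gene name from tables of exonic and intronic reads and make up 3 of the 23227 genes in the exonic tables and 3 of the 23231 genes in the intronic tables. Total RNA depleted of ribosomal RNA was sequenced from immortalized mouse mesenchymal stem cells (MSCs), stromal cells named fibroblasts in some of the labels. There were 6 groups, namely Dicer KO cells (Dicer -/-), Dicer WT cells (Dicer f/f, with the floxed alleles intact), WT cells over-expressing Pbx3, WT cells over-expressing Sox9, WT cells over-expressing Tead4, and WT cells transfected with the empty vector. The transfected cells therefore all carry floxed, uncut Dicer alleles. Dicer KO and Dicer WT are 1 monoclonal line each, and an effect of the clone cannot be told apart from that of the genotype. Each transcription factor was expressed from a transfected vector, and the labels give neither its promoter nor the time after transfection. The comparisons ask what the loss of Dicer changes in these cells, and what each factor changes against the empty vector.

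Igf2bp proteins bind mRNAs through RRM and KH domains, gather them into cytoplasmic particles and control where they are held, how long they last and how well they are translated. Igf2bp1 and Igf2bp3 are known as oncofetal genes, abundant in the embryo and in many tumours but low in most adult tissues, while Igf2bp2 remains in several adult tissues. All are known targets of let-7, a microRNA family that rises as tissues mature, and Dicer is the enzyme that cuts microRNA precursors to their mature form.

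The mature let-7 sequences are shown because their seed (bases 2 to 8 from the 5′ end, in capitals) is what a target site pairs with. Of the family, 9 mouse members were matched in RefSeq (GRCm38.p6), and all 9 share the seed GAGGUAG.
mmu-let-7a-5p: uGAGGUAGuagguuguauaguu
mmu-let-7e-5p: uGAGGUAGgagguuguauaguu
mmu-let-7g-5p: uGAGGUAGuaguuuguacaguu
mmu-miR-98-5p: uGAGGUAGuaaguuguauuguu
These copies lie at chr13:48538239-48538260 on the minus strand, chr17:17830366-17830387 and chr9:106178846-106178867 on the plus strand, and chrX:151913229-151913250 on the plus strand.

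The 3′ UTRs of the family were searched on the mRNA strand, in the GENCODE vM21 transcripts (GRCm38), for CTACCTC, which pairs with the whole seed, and for TACCTCA, a shorter pairing followed by an A. Both together, CTACCTCA, make an 8-mer match, and each match was counted once, under its longest form. Igf2bp1 held 5 matches in a UTR of 6337 bases, of which 3 were 8-mers, Igf2bp2 held 2 in 1784 bases with 1 8-mer, and Igf2bp3 held 1, an 8-mer, in 2119 bases. Of 20957 mouse genes with a UTR, 14.8% held at least 1 match. For comparison, UTR windows of the same length as each gene's UTR were counted, with that UTR itself among them. At least as many matches as in Igf2bp1 were held by 0.475% of 421 windows. With so few windows, the Igf2bp1 UTR itself makes up a large part of that share. At least as many as in Igf2bp2 were held by 2.49% of 9203 windows, and as in Igf2bp3 by 22.7% of 6816. The 30 bases that end with each of 4 matches are given in the sense of the mRNA, with the bases of the match in capitals, since these are the stretches where let-7 could pair.
Igf2bp1, 1715 bases after the stop codon: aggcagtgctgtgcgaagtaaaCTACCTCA
Igf2bp1, 1734 bases after the stop codon: taaactacctcaaggtgtgaagtTACCTCA
Igf2bp2, 1313 bases after the stop codon: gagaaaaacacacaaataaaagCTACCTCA
Igf2bp3, 548 bases after the stop codon: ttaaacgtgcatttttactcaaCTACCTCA
These matches lie on the minus strand at chr11:95961778-95961785, chr11:95961760-95961766, chr16:22059473-22059480 and chr6:49086787-49086794. The first pair of Igf2bp1 matches and the pair in Igf2bp2 stand close together, as a map of the UTRs shows. A match describes letters only, and no binding was measured.

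**Figure D1:**
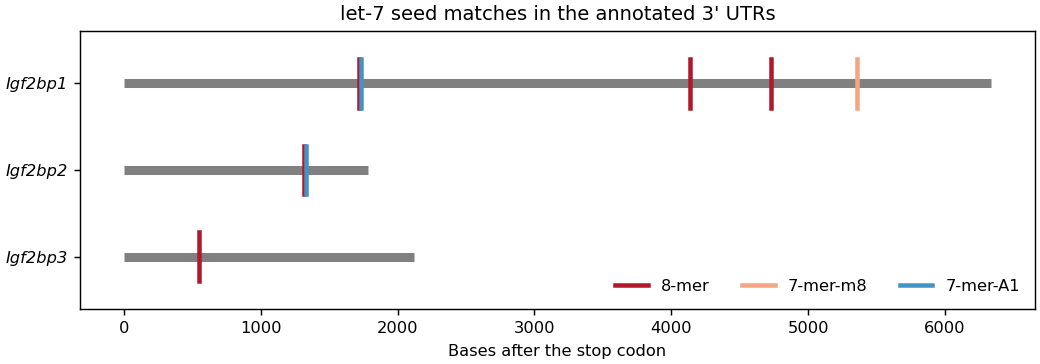
Positions of let-7 seed matches (coloured ticks) along the annotated 3′ UTR (grey bar) of each Igf2bp gene, in bases after the stop codon. An 8-mer is CTACCTCA, a 7-mer-m8 is CTACCTC alone and a 7-mer-A1 is TACCTCA alone; Igf2bp1 has 5 matches, Igf2bp2 has 2 and Igf2bp3 has 1.

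The genes lie on the minus strand of chromosomes 11, 16 and 6 (GRCm38). Igf2bp1 spans chr11:95957163-96005940 with 15 exons, Igf2bp2 spans chr16:22059009-22163299 with 16 exons, and Igf2bp3 spans chr6:49085223-49214957 with 15 exons. GENCODE places Gm29202 on the strand opposite Igf2bp1, and Malsu1 and Gm18010 on the strand opposite Igf2bp3. Mir3063, a microRNA locus, overlaps Igf2bp1 on the same strand. The libraries were strand-specific, but whether the authors' counting used the strand, and how it treated reads shared between paralogs, is not given in the sources used here.

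The tables give group means, from which the reads of 2 libraries per group were recovered, 12 libraries in all, although the labels list 1 sample per group. The sources do not say that they came from separate cultures, so the spread behind each p-value may be technical. Exonic reads per library ranged from 6130267 to 23501655 and intronic reads from 3156973 to 10205497. Of 13 stromal markers, 12 reached 1 RPM (reads per 1000000 exonic reads of the library) in every group, and Thy1, a defining MSC surface marker, was at 0 in all of them. The haematopoietic, endothelial, epithelial and pluripotent marker lists summed to at most 0.653 RPM in any library. The over-expressed gene rose for Pbx3 (log2 fold change 7.04 ± 0.21, adjusted p = 0.0013, limma) and Tead4 (7.17 ± 0.18, adjusted p = 0.000284), while Sox9 stood at 1.29 ± 0.39 (adjusted p = 0.272). Dicer1 transcripts in Dicer KO stood at -0.46 ± 0.14 (adjusted p = 0.0859), a whole-gene count in which reads of the deleted part cannot be separated. Values with ± here are limma log2 fold changes on log2(normalised count + 1) with their standard error, 2 libraries against 2, and adjusted p-values are limma's with Benjamini-Hochberg adjustment over all genes with a mean of at least 50.

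In cells without Dicer, all 3 Igf2bp genes were among the most strongly raised transcripts. By log2 fold change in exonic reads Igf2bp3 ranked 1st, Igf2bp1 8th and Igf2bp2 15th of 10706 genes tested. In every case both Dicer KO libraries lay far above both Dicer WT libraries.

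Igf2bp1, which stabilises mRNAs such as Myc and carries Actb mRNA in the cytoplasm, had 3623 and 3328 normalised exonic counts in the Dicer KO libraries, against 54.7 and 53.5 in the Dicer WT libraries. The replicate libraries of each group lay close together and the groups were far apart. Its log2 fold change was 5.98 ± 0.16 (adjusted p = 0.000624, limma), with the 2nd smallest p of all genes tested. The pooled reads, 7175 in KO and 106 in WT, gave a ratio of 64.4 after scaling by the authors' size factors. Its 95% counting interval, 53.1 to 78.7, covers counting error only.

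Igf2bp2, the member tied to growth and metabolism in adult muscle and fat, had 2839 and 2894 normalised exonic counts in Dicer KO, against 42.4 and 141 in Dicer WT. Its WT libraries differed by 1.71 on the log2 scale, more than 99.2% of genes did, yet both stayed far below the KO libraries. Its log2 fold change was 5.19 ± 0.55 (adjusted p = 0.0067, limma), and it was 4.33 without the first WT library and 6.05 without the second. Reads gave a ratio of 32.6 (counting interval 28 to 38.2).

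Igf2bp3, the member most restricted to embryonic tissue, had 1674 and 1901 normalised exonic counts in Dicer KO, against 4.71 and 1.11 in Dicer WT. These WT values are 5 reads and 1 read, against 1826 and 1841 reads in KO. The log2 fold change was 9.0 ± 0.52 (adjusted p = 0.00301, limma) and depends on the added count of 1, since with 5 added it was 7.86. It was 9.72 without the first WT library and 8.29 without the second. The ratio of pooled reads was 581, with a counting interval from 267 to 1585. Igf2bp3 passed the minimum mean of 50 through the KO group alone, so its presence among the tested genes follows from its KO level.

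The 3 members thus all passed the exonic test, where 16.6% of the 10706 genes tested passed in either direction and 9.28% passed as higher in Dicer KO. The authors' deposited table lists fold changes of 64.3 for Igf2bp1, 31.2 for Igf2bp2 and 614 for Igf2bp3. With each library left out, and under every other alternative tried, all 3 stayed past the threshold.

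**Figure D2:**
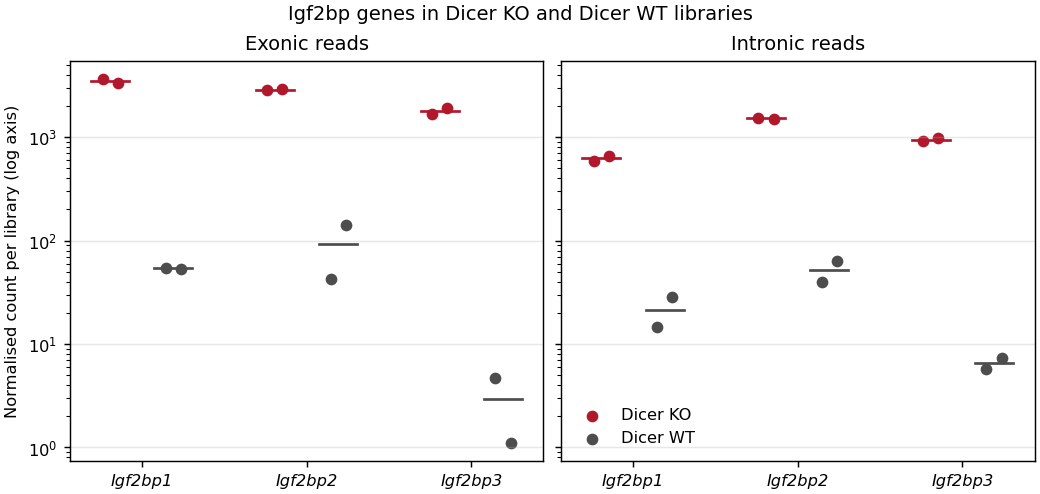
Normalised counts of each Igf2bp gene in each library (log axis), exonic reads on the left and intronic reads on the right, Dicer KO in red and Dicer WT in grey; points are libraries and bars are means of 2. In every panel the KO libraries lie above all WT libraries, for example 1674 and 1901 against 4.71 and 1.11 exonic counts for Igf2bp3.

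Intronic reads, which come mainly from unspliced RNA, rose with the exonic reads for all 3 genes. Igf2bp1 had 589 and 654 normalised intronic counts in Dicer KO, against 14.5 and 28.2 in Dicer WT, a log2 fold change of 4.87 ± 0.35 (adjusted p = 0.00564, limma). Igf2bp2 had 1542 and 1512 in Dicer KO, against 39.5 and 63.7 in Dicer WT, a change of 4.90 ± 0.26 (adjusted p = 0.00321, limma). Igf2bp3 had 917 and 975 in Dicer KO, against 5.78 and 7.30 in Dicer WT, and again had the largest log2 fold change, 6.98 ± 0.23, of the 10215 genes tested (adjusted p = 0.00186, limma). In this comparison 6.51% of the genes tested passed in either direction and 2.86% of the genes tested passed as higher in Dicer KO, and Igf2bp1 and Igf2bp3 passed the minimum through the KO group alone. The groups did not overlap for any member.

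The exonic change exceeded the intronic change by 1.11 ± 0.28 for Igf2bp1 and by 2.03 ± 0.49 for Igf2bp3 on the log2 scale, while for Igf2bp2 the difference was 0.29 ± 0.30. None of these passed limma's test of the difference over 9402 genes (adjusted p = 0.085, 0.0765 and 0.666), in which 3.92% of genes passed. By size of this difference Igf2bp3 ranked 8th and Igf2bp1 49th of the 9402 genes. Both genes entered this test through their Dicer KO level, which limits what the ranks show. Their Dicer WT means below the minimum were 2.91 exonic and 6.54 intronic for Igf2bp3, and 21.3 intronic for Igf2bp1. The difference also depends on the added count, and with a larger one it was 1.49 for Igf2bp3 and 1.26 for Igf2bp1. Over the alternatives that kept all libraries, limma's adjusted p ran from 0.0343 to 0.338 for Igf2bp1 and from 0.0283 to 0.338 for Igf2bp3. The differences of these genes thus moved across the threshold with the settings. Without the first WT library the difference was 1.58 for Igf2bp1 and 2.89 for Igf2bp3, and without the second it was 0.63 and 1.16. For Igf2bp2 the sign followed 1 library: the difference was -0.23 without the first WT library and 0.81 without the second.

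**Figure D3:**
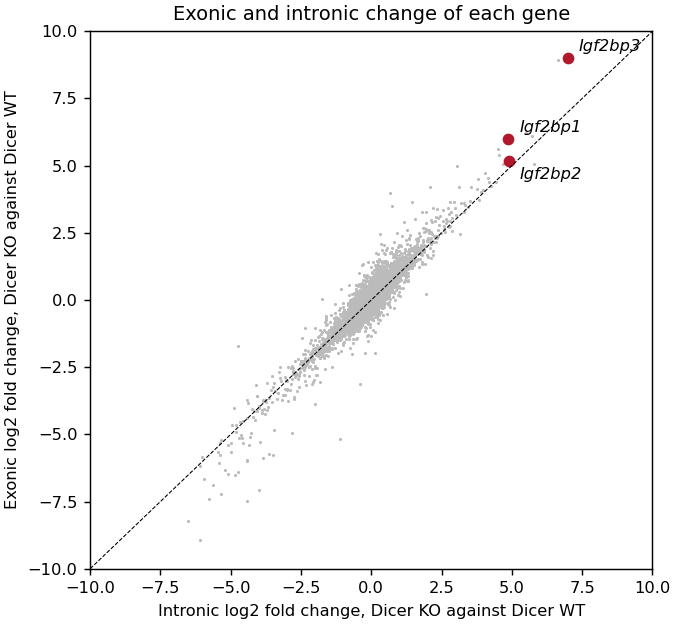
Log2 fold change of each gene tested in both kinds of reads, Dicer KO against Dicer WT, with the intronic change on the horizontal axis and the exonic change on the vertical axis; the dashed line marks equal change and red points mark the Igf2bp genes. Igf2bp3 lies at 6.98 and 9.0 and Igf2bp1 at 4.87 and 5.98, above the line, and Igf2bp2 lies close to it at 4.90 and 5.19.

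In WT cells with a transcription factor, the members parted. Igf2bp2 rose with Tead4 and with Sox9, in exonic and intronic reads alike, while Igf2bp1 did not pass any test and Igf2bp3 stayed at a handful of reads. The 3 factor comparisons share the vector libraries, so their values are set side by side and are not independent of each other.

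With Tead4, a DNA-binding partner of the Hippo pathway co-activators Yap and Taz, Igf2bp2 had 551 and 410 normalised exonic counts, against 79.4 and 51.2 in vector cells. All Tead4 libraries lay above all vector libraries. The log2 fold change of 2.88 ± 0.27 passed the test (adjusted p = 0.0397, limma) and was the 7th largest of 9796 genes, of which 0.143% passed and 0.0817% passed as higher in Tead4. Its adjusted p was 0.164 without the first Tead4 library and 0.0514 with total reads as the scale, within a range over all alternatives of 3.28e-49 to 0.164. Intronic counts were 259 and 231 in Tead4 cells, against 39.4 and 26.2 in vector cells, a change of 2.89 ± 0.25 (adjusted p = 0.00386, limma), where 1.61% of genes passed and 0.757% passed as higher in Tead4. The intronic call held under every alternative that tested the gene, which a minimum of 200 did not. The vector mean of 32.8 was below the minimum of 50, so Igf2bp2 entered that test through its Tead4 level.

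With Sox9, a factor that drives cartilage formation, Igf2bp2 had 301 and 309 normalised exonic counts, against 66.9 and 43.5 in vector cells. The log2 fold change was 2.48 ± 0.26 (adjusted p = 0.00991, limma), the 35th largest of 9698 genes, of which 0.547% passed and 0.454% passed as higher in Sox9. Intronic counts were 216 and 198 in Sox9 cells, against 35.3 and 23.8 in vector cells, a change of 2.79 ± 0.25 (adjusted p = 0.00119, limma), where 1.99% passed and 1.45% passed as higher in Sox9. The vector mean of 29.6 was below the minimum of 50, so Igf2bp2 entered the intronic test through its Sox9 level. Both calls held under every alternative that tested the gene, which a minimum of 200 did not. The exonic change differed from the intronic change by -0.31 ± 0.12 with Sox9 (adjusted p = 0.394, limma) and by -0.01 ± 0.12 with Tead4 (adjusted p = 0.99). In each of these tests of the difference 1 gene passed, 0.0128% with Sox9 and 0.0125% with Tead4.

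With Pbx3, a homeodomain partner of Hox proteins, Igf2bp2 had 106 and 144 normalised exonic counts, against 80.4 and 52.0 in vector cells. The groups did not overlap, and the change of 0.93 ± 0.33 did not pass (unadjusted p = 0.0355 and adjusted p = 0.9998, by limma's model over all genes), where 1 gene passed, 0.0102% of 9826. Intronic counts were 60.4 and 56.3 in Pbx3 cells, against 39.3 and 26.1 in vector cells, with a mean below the minimum. In the intronic comparison 0 of 8557 genes passed, 0% (248 at an unadjusted p under 0.05 by limma, 19 by the authors' test). In exonic reads Pbx3 itself was the gene that passed.

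Tead4 and Sox9 cells were also set against Pbx3 cells for Igf2bp2, in a fit of the 4 transfected groups that was chosen after the data had been seen. Igf2bp2 was higher with Tead4 than with Pbx3 by 1.95 ± 0.26 in exonic reads (adjusted p = 0.0325, limma, 0.787% of genes passed) and by 2.04 ± 0.22 in intronic reads (adjusted p = 0.00643, 1.53% passed). It was higher with Sox9 than with Pbx3 by 1.55 ± 0.26 in exonic reads (adjusted p = 0.0466, 0.941% passed) and by 1.95 ± 0.22 in intronic reads (adjusted p = 0.00239, 4.48% passed). The Sox9 exonic call was lost in 8 of 13 alternatives, with adjusted p from 0.0383 to 0.307, and the Tead4 exonic call in 5 of 13, with adjusted p from 0.0229 to 0.298. The Tead4 intronic call was lost without the first Tead4 library (1.96, adjusted p = 0.0976). Tead4 and Sox9 cells differed by 0.39 in exonic reads (95% interval -0.22 to 1.01, adjusted p = 0.451, 3.56% passed) and by 0.09 in intronic reads (-0.41 to 0.59, adjusted p = 0.849, 5.99% passed), intervals that leave room for a difference of up to 2-fold in exonic reads.

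Igf2bp1 was low in all transfected cells. It had 12.6 and 25.3 normalised exonic counts with Tead4, against 52.7 and 22.1 in vector cells, and the groups overlapped. Its intronic counts, 6.84 and 7.94 with Tead4 against 21.5 and 12.5 in vector cells, did not overlap. At a minimum mean of 10, which Igf2bp1 passes, the Tead4 changes were -0.90 ± 0.57 in exonic reads (adjusted p = 0.486, limma) and -1.06 ± 0.47 in intronic reads (adjusted p = 0.337). With Sox9 it had 41.7 and 48.2 exonic counts, against 44.3 and 18.8 in vector cells (0.61 ± 0.45, adjusted p = 0.592), and with Pbx3 34.9 and 61.7, against 53.3 and 22.4 (0.41 ± 0.54, adjusted p = 0.9999). In intronic reads the Sox9 and vector libraries did not overlap either (0.69 ± 0.39, adjusted p = 0.419, limma). Those of Pbx3 and vector overlapped (0.39 ± 0.41, adjusted p = 0.9999, limma). The vector libraries of Igf2bp1 differed by 1.21 on the log2 scale, more than 98.3% of genes did.

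Igf2bp3 had 6 exonic reads over both Pbx3 libraries, 2 over both Sox9 libraries and 0 over both Tead4 libraries, against 2 over both vector libraries. The 0 in Tead4 cells allows up to 0.153 RPM, 3 reads over the group. Intronic reads numbered 9 with Pbx3, 2 with Sox9 and 10 with Tead4, against 2 in vector cells. For the intronic reads with Tead4, 6 and 4 in the libraries against 2 and 0 in vector cells, the ratio of pooled reads was 4.86 with a counting interval of 1.04 to 45.7, which covers counting error only. The counting intervals of the other comparisons with vector cells included 1. Igf2bp3 was below the minimum mean of 50 in these comparisons, and with no minimum the change in intronic reads with Tead4 did not pass (1.80 ± 0.67, adjusted p = 0.271, limma).

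**Figure D4:**
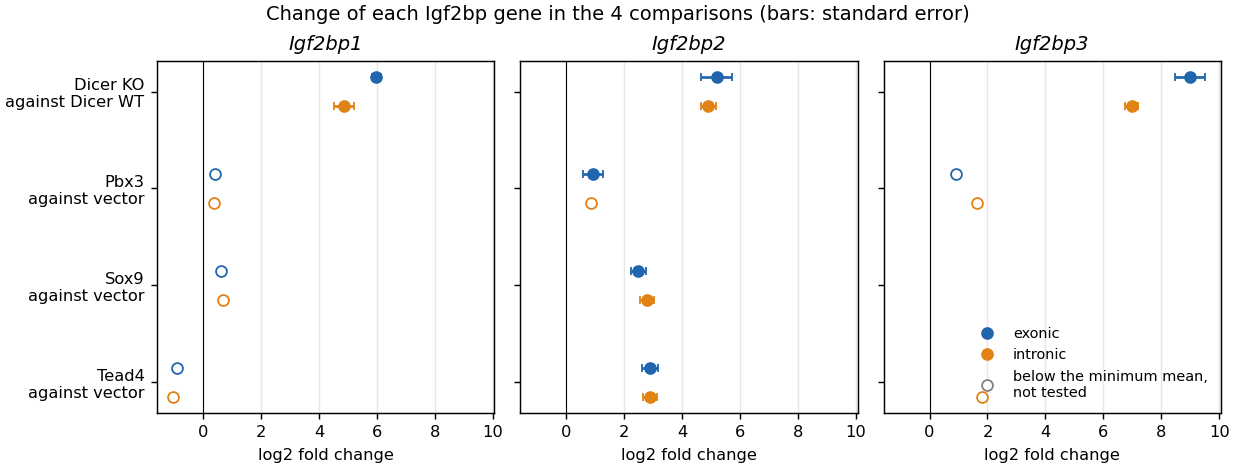
Log2 fold change of each Igf2bp gene in the 4 comparisons, exonic reads in blue and intronic reads in orange, with bars for the standard error; open points fell below the minimum mean of 50 and were not tested, and no point is drawn where both groups had 3 reads or fewer. All members lie far to the right in Dicer KO, from 4.87 to 9.0, and in the factor comparisons only Igf2bp2 has tested points, from 0.93 with Pbx3 to 2.89 with Tead4.

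Levels between genes were compared as exonic RPM divided by the length of the GENCODE transcript in kilobases, where the lengths may differ from the authors' gene models. In Dicer KO the members were of like size, with 19.3 ± 1.1 for Igf2bp1, 34.3 ± 0.6 for Igf2bp2 and 19.2 ± 1.8 for Igf2bp3 (SD, n = 2 libraries). In Dicer WT they stood at 0.304 ± 0.008, 1.13 ± 0.89 and 0.031 ± 0.026. Igf2bp2 thus had the highest level per kilobase in every library, but its share of the family total on this scale varied widely. The share was 47.1% and 47.1% in the Dicer KO libraries, against 58.8% and 84.5% in the Dicer WT libraries. It was 99.0% and 97.2% with Tead4, 94.0% and 92.6% with Sox9 and 84.5% and 82.5% with Pbx3, against 75.9% and 81.9% in vector cells.

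Across the 6 groups, Igf2bp2 in exonic RPM ranked Dicer KO (132 and 135), Tead4 (56.5 and 43.0), Sox9 (36.3 and 38.7), Pbx3 (10.4 and 14.9), vector (8.36 and 5.13) and Dicer WT (1.94 and 6.86). As a description, the mean in Tead4 cells was 37.2% of the Dicer KO mean and that in Sox9 cells 28.1%, since the tables were normalised apart and no test joins them. The vector and Dicer WT libraries overlapped, and the Tead4 and Sox9 groups, although their libraries did not overlap, were not told apart by the test above. Igf2bp1 had 168 and 156 RPM in Dicer KO, and in the other 5 groups all libraries lay between 1.29 and 6.40 with overlapping neighbours. Igf2bp3 had 77.7 and 88.9 in Dicer KO and at most 0.369 in any other library.

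**Figure D5:**
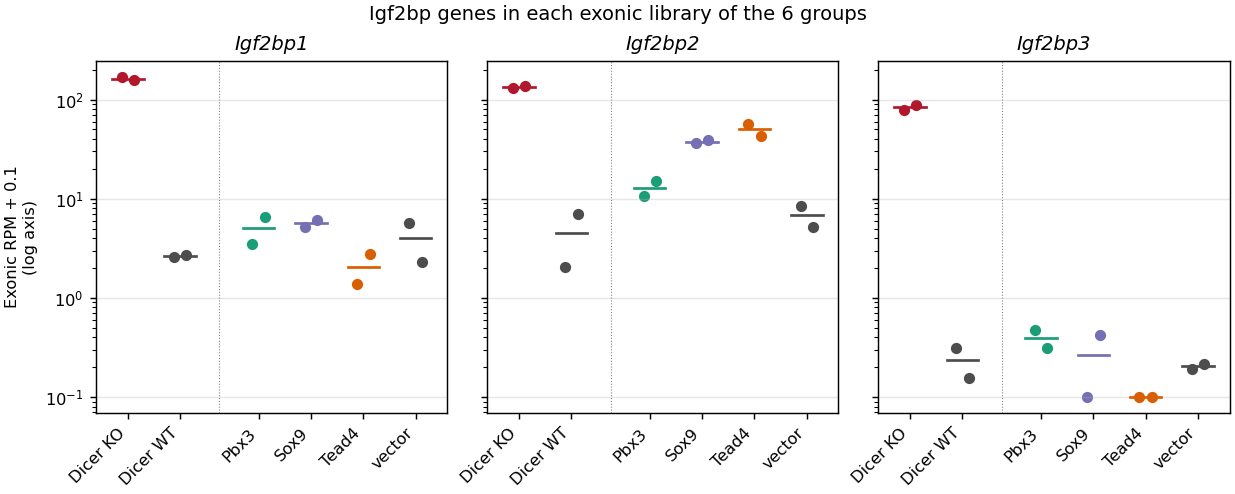
Exonic RPM plus 0.1 (log axis) of each Igf2bp gene in the 12 libraries, with Dicer KO and Dicer WT left of the dotted line and Pbx3, Sox9, Tead4 and vector right of it; points are libraries and bars are means of 2. Igf2bp2 is raised in Sox9 libraries (36.3 and 38.7) and Tead4 libraries (56.5 and 43.0), whereas Igf2bp1 and Igf2bp3 are high in Dicer KO alone.

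Genes with the most similar pattern were found by the Euclidean distance of mean-centred log2(RPM + 1) over the 12 exonic libraries, among 10706 genes. This is a description, in which the libraries of a group are not known to come from separate cultures. The distance is led by the contrast of Dicer KO with the rest. Nearest to Igf2bp1 were Tgm2 (distance 1.65), Gpr141 (1.80), Rarb (2.02), Prlr (2.03) and Igf2bp3 (2.07). Among the genes nearest to Igf2bp3 were Igf2bp1 (2.07), Prlr (2.12), Cadm1 (2.48) and Rarb (2.73). Tgm2, a protein-crosslinking enzyme, averaged 385 RPM in Dicer KO, 21.9, 29.5 and 17.1 with Pbx3, Sox9 and Tead4, 14.5 in vector cells and 18.7 in Dicer WT.

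Igf2bp2 had other neighbours, at larger distances. They were Elovl7 (3.03), Fam38b (3.40), Nr6a1 (3.50), Ccnd2 (3.54) and Chac1 (3.57), and Igf2bp1 came only 933rd. Ccnd2, a D-type cyclin, averaged 350 RPM in Dicer KO and 73.9 in Dicer WT, and 249 with Tead4, 101 with Sox9 and 83.1 with Pbx3, against 90.0 in vector cells. Nr6a1, a nuclear receptor of the early embryo and a let-7 target, averaged 149 in Dicer KO and 9.58 in Dicer WT, and between 9.26 and 15.2 in the transfected cells.

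Lists of genes around the family were read against the 16.6% of all genes tested that passed in Dicer KO exonic reads. Of the 10706 genes tested, 3659 stood at an unadjusted p under 0.05 by limma, and the authors' test called 1729 genes. Of 9 measured genes among the let-7 maturation and decay factors, 0 passed (1 at an unadjusted p under 0.05 by limma, 0 by the authors' test), and their median log2 fold change was 0.23 against 0.01 over all genes. Lin28a and Lin28b, the inhibitors of let-7 maturation, had 0 reads in all libraries of the Dicer table. The tables list 12 let-7 loci, none with an exonic read, so the level of let-7 itself was not measured in these libraries.

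The partner proteins and related RNA-binding proteins gave counts that are to be read against the same 16.6%. Counts at an unadjusted p under 0.05 are to be read against 3659 of 10706 genes by limma. Of 12 measured proteins found with Igf2bp in mRNA particles, 1 passed (4 at an unadjusted p under 0.05 by limma, 0 by the authors' test), and the median was -0.01. It was Fxr1, a relative of the fragile X protein, which rose by 0.64 ± 0.13 (adjusted p = 0.0357, limma). In intronic reads 0 of 12 passed, where 6.51% of all genes did. Ybx1, a cold-shock mRNA packaging protein named after its value was seen, did not pass (-0.54 ± 0.15, adjusted p = 0.0612, limma). Of 13 measured genes for writing, erasing and reading m6A, the mRNA mark that Igf2bp proteins are known to read, 0 passed (1 at an unadjusted p under 0.05 by limma, 0 by the authors' test), with a median of 0.11. Of 22 measured KH-domain proteins outside the family, 3 rose and 2 fell, with a median of 0.04. Khdrbs3, a splicing regulator, fell by 6.51 with a standard error of 0.67 (10.1 and 2.07 normalised counts in Dicer KO, against 641 and 441 in Dicer WT, adjusted p = 0.00651, limma). Mex3d fell to 193 and 169 in Dicer KO, against 353 and 345 in Dicer WT. Mex3b rose to 600 and 754 in Dicer KO, against 375 and 335 in Dicer WT. The others that rose were Fxr1 and, named after its value was seen, Mex3a (0.76 ± 0.15).

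Among mRNAs reported as bound by Igf2bp proteins, 3 of 12 measured rose, 1 fell and 8 did not pass, with a median of 0.10, where 16.6% of all genes passed and 9.28% passed as higher in Dicer KO. Hmga2, a chromatin protein and let-7 target that is known in the mouse to activate Igf2bp2 transcription, had 1279.9 and 1859 normalised counts in Dicer KO, against 205 and 90.2 in Dicer WT (3.49 ± 0.42, adjusted p = 0.00943, limma). Ccnd1 rose by 1.88 ± 0.21 and Ccnd3 by 1.80 ± 0.17, both D-type cyclins, while Ccng1, named after its value was seen, fell (-1.52 ± 0.21). Myc stood at -0.02 ± 0.43 and Actb at 0.12 ± 0.20, and neither passed. In Tead4 cells Hmga2 had 2165 and 1217 exonic counts, against 367 and 405 in vector cells (2.07 ± 0.28, adjusted p = 0.079), and its intronic reads passed (2.27 ± 0.29, adjusted p = 0.0138). With Sox9, Hmga2 did not pass in either kind of reads. There 0 of the 12 mRNAs of this list measured in exonic reads passed, where 0.547% of all genes did. In intronic reads 0 of 10 passed, where 1.99% of all genes did. The part of Hmga2 in the Igf2bp2 result was not tested.

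Of the insulin-like growth factor axis, 2 of 10 measured genes rose, 3 fell and 5 did not pass, with a median of -0.03, where 16.6% of all genes passed and 9.28% passed as higher in Dicer KO. Igf1, the growth factor, had 1911 and 2241 normalised counts in Dicer KO, against 249 and 315 in Dicer WT (2.88 ± 0.19, adjusted p = 0.00337, limma). Pappa, the protease that frees Igf1 from Igfbp4, fell (-3.15 ± 0.39), and so did Igfbp4 itself (-2.81 ± 0.60, adjusted p = 0.0367). Igf2r (1.12 ± 0.20) and Grb10 (-1.02 ± 0.14) passed too and are named after their values were seen. Igf2, the mRNA that gave the family its name, had 0 reads in Dicer KO and 28 reads in Dicer WT, below the minimum, and the H19 row held 0 reads in both.

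In the factor comparisons the same 6 lists, with a gene counted once in each list that holds it, were counted against the share of all genes that passed. In exonic reads with Tead4, 0 of 78 measured members passed, against 0.143% of all genes (11 at an unadjusted p under 0.05 by limma, 2 by the authors' test). Over all genes these counts were 1554 of 9796 by limma and 250 by the authors' test. With Sox9, where 0.547% of all genes passed, 1 of 79 did, namely Igfbp5. Igfbp5, which binds growth factor in the matrix of cartilage and bone, had 644 and 230 normalised counts against 7.27 and 0 in vector cells. These vector counts lay below the minimum mean, so Igfbp5 entered this test through its Sox9 level. With Pbx3, 0 of 78 passed, against 0.0102% of all genes (5 at an unadjusted p under 0.05 by limma, 0 by the authors' test). Over all genes the counts were 233 of 9826 by limma and 15 by the authors' test. In intronic reads, where 1.61% of all genes passed with Tead4, 3 of 72 did, which besides Hmga2 were Igfbp4 (-4.93 ± 0.65) and Khdrbs3 (-2.08 ± 0.34). With Sox9, where 1.99% of all genes passed, 3 of 74 did, Igfbp5, Irs1 (1.14 ± 0.17) and Pappa (0.92 ± 0.16). In intronic reads 11 genes of the growth factor axis were measured with Sox9, against 9 with Tead4 and 9 with Pbx3. The genes that entered thus differed between the comparisons. With Pbx3 0 of 72 passed, against 0% of all genes (4 at an unadjusted p under 0.05 by limma, 0 by the authors' test). Over all genes the counts were 248 of 8557 by limma and 19 by the authors' test. Apart from Igfbp4, Khdrbs3, Hmga2 and Pappa, the genes named for these comparisons are named after their values were seen.

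Of 12 stromal markers measured in Dicer KO exonic reads, 0 rose, 5 fell and 7 did not pass, where 16.6% of all genes passed, and their median log2 fold change was -0.61 against 0.01 over all genes. Among those that fell were Col1a1 (-2.31 ± 0.18) and Twist1 (-1.06 ± 0.24), and the summed list ran from 4280 to 4790 RPM in Dicer KO against 6340 to 6510 in Dicer WT. It ran from 6810 to 6880 in Tead4 and from 7820 to 9800 in Sox9 cells, against 5150 to 6140 in vector cells. The part of these shifts in the Igf2bp values was not tested.

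Because Igf2bp2 moved in intronic as well as exonic reads with 2 factors, its promoter is shown (RefSeq, GRCm38.p6, chr16:22163250-22163549, minus strand), from 250 bases before the start to 50 after, with CpG pairs in capitals.
Igf2bp2 promoter: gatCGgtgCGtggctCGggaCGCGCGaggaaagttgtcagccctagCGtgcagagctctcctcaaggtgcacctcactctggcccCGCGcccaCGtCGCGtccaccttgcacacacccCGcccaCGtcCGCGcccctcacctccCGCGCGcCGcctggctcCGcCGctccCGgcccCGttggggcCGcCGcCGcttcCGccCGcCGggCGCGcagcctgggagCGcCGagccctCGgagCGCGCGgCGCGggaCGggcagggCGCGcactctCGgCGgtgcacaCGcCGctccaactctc
It holds 47 CpG pairs, more than 98.6% of 32851 mouse promoters of that length, whose median is 7, and the Igf2bp3 promoter holds 25. On both strands it was searched for GGAATG (TEAD factors, in 14.7% of promoters), ACAANG (SOX factors, in 41.2%) and TGATTNAT (PBX factors, in 3.20%). The Igf2bp2 and Igf2bp3 windows held 0 matches to each, which says only that these letters are not in these windows.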

How the data were processed

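Total RNA of 6 groups was sequenced on an Illumina HiSeq as strand-specific single-end libraries, per the labels' protocols. The submitters' processing notes name Bowtie2, the mm9 build and DESeq 1.10.1. Deposited were 8 tables of exonic or intronic read counts, which the authors divided by size factors and averaged per group (a signal, per the file headers), with the ratio or fold of the means, its log2 and p-values, all as deposited by the authors. How reads were assigned to exons and introns is not given in the sources used here.

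The means fell on whole-number sums of 2 step sizes, which gave the reads of 2 libraries uniquely for 100% of genes (tolerance 1e-09). The recovery and the fits were tested on simulated data. The first library named is that of the larger size factor, and the order of libraries pairs nothing between groups. Exonic and intronic values of a library were joined by the sign of their within-group difference across genes. 0 value columns had no group.

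Log2(normalised count + 1) values were tested in R 4.3.3 with limma 3.58.1, allowing for a trend of variance with the mean, 2 libraries against 2, over genes with a mean of at least 50 over both groups, Benjamini-Hochberg adjusted, with a threshold of 0.05. The alternatives were other minimums (10, 200, none), pseudocounts (0.5, 5), total reads as the scale, the authors' test and leaving out each library. The design named a count test for tables of raw counts, and these tables hold group means, so limma was used. Counting intervals were exact binomial intervals of the share of pooled reads, turned into ratios. These intervals and the floors of 3 reads over a group cover counting error only.

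The members, gene lists and tests were chosen with earlier results of these data known. Genes named were the 3 members, the 5 nearest to each by pattern (1 of which is not reported here), the targeted genes, Lin28b, Igf2, H19, Myc, Actb and Hmga2, and in each list up to 3 that passed with the largest change in Dicer KO exonic reads. Lists were described by counts and medians, without a set test.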

Additional observations from a re-analysis of the deposited data

How the results depend on the processing

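The calls of Igf2bp1, Igf2bp2 and Igf2bp3 in Dicer KO, exonic and intronic, and of Igf2bp2 with Sox9 against vector and in intronic reads with Tead4 kept their direction and their side of the threshold under every alternative run, which for Igf2bp2 with Sox9 and for its intronic reads with Tead4 leaves out the minimum of 200, since their means of 180.03, 118 and 139 lie below it. For Igf2bp2 with Tead4 against vector in exonic reads, the change was 2.67 without the first Tead4 library (adjusted p = 0.164, limma) and 2.89 with total reads as the scale (adjusted p = 0.0514). The exonic minus intronic change in Dicer KO passed for Igf2bp1 at a minimum of 200 (1.11, adjusted p = 0.0343) and a pseudocount of 5 (1.26, adjusted p = 0.0345), and for Igf2bp3 likewise (2.03, adjusted p = 0.0307, and 1.49, adjusted p = 0.0283). Leaving out a library gave 0.63 to 1.58 for Igf2bp1, 1.16 to 2.89 for Igf2bp3 and -0.23 to 0.81 for Igf2bp2, whose sign turned without the first Dicer WT library. The exonic difference of Igf2bp2 between Sox9 and Pbx3 lost its call at a minimum of 200 (1.55, adjusted p = 0.0692) and with total reads as the scale (1.58, adjusted p = 0.055), and ran from 1.34 to 1.77 with a library left out. Between Tead4 and Pbx3 it ran from 1.73 to 2.16 in exonic reads and from 1.96 to 2.12 in intronic reads, where the call was lost without the first Tead4 library (1.96, adjusted p = 0.0976). The cause was not tested.

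The number of genes called moved more than the members did. For Dicer KO, 1782 exonic genes were called (535 to 1908 with a library left out), and 665 intronic genes (377 at a minimum of 200, 162 to 955 with a library left out). For Tead4, 14 exonic genes were called, with 23 at a minimum of 10, 9 at 200, 91 with no minimum, 250 by the authors' test and 5 to 2375 with a library left out. Of intronic genes, 138 were called for Tead4, with 210 at a minimum of 10, 50 at 200, 315 with no minimum, 58 with total reads as the scale and 49 to 900 with a library left out. For Sox9, 53 exonic genes were called, with 105 at a minimum of 10, 23 at 200, 165 with no minimum, 167 by the authors' test and 73 to 1271 with a library left out, and 166 intronic genes, with 262 with no minimum and 114 to 389 with a library left out. For Pbx3, limma called 1 exonic gene (15 by the authors' test, 4 to 19 with a library left out) and 0 intronic genes (248 at an unadjusted p under 0.05, 6 with no minimum, 19 by the authors' test, 8 to 45 with a library left out). With a library left out, the lone library is assumed to vary like the other group.

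With 2 libraries a group and 1 clone a genotype, depth limits Igf2bp3 outside Dicer KO, where no library held more than 7 reads in either kind, and Dicer WT values of Igf2bp2 differ between libraries. The quasi-likelihood and negative binomial count tests planned as alternatives were not run. No paired analysis was possible because the labels carry no replicate numbers.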
